A study of Mus musculus with 2 samples.

Results

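The genes described here are the 5 C/EBP transcription factor genes Cebpa, Cebpb, Cebpd, Cebpe and Cebpg and 5 genes of early granulocytes, Mpo, Prtn3, Elane, Ctsg and Ms4a3. They were taken as a named list, by symbol, and each matched 1 of the 43346 gene entries in the tables. The cells were G1E, a mouse line kept as an immortal culture and labelled a Gata1- erythroid progenitor in both samples, that is, without the erythroid factor GATA1; its source is recorded as male, postnatal and 0 day old. The data were 2 paired-end polyadenylated RNA libraries forming 1 group, with no treatment, time course or Gata1-sufficient control among them. The labels number the libraries as biological replicates 1 and 2 but give both the same biosample, so p-values speak of the difference between these 2 samples, which may be technical.

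C/EBP proteins bind DNA as dimers through a basic region and a leucine zipper, the bZIP fold, and different members can pair with each other. In blood formation C/EBPα sets up the granulocyte and monocyte progenitor, C/EBPβ acts in both lineages and in emergency granulopoiesis, C/EBPδ is known from the acute phase response, and C/EBPε drives late granulocyte maturation and the genes of later granules. C/EBPγ lacks a classical activation domain and forms heterodimers with other bZIP proteins. Myeloperoxidase (Mpo), proteinase 3 (Prtn3), neutrophil elastase (Elane) and cathepsin G (Ctsg) are stored in primary, or azurophil, granules, which form at the promyelocyte stage. Ms4a3 encodes a membrane protein that marks granulocyte and monocyte progenitors and is not itself a granule enzyme.

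In these cells 3 of the 5 C/EBP genes and 2 of the 5 granulocyte genes reached 1 TPM in both libraries, the level taken here as detected. TPM is the deposited transcript abundance, scaled by transcript length and library total, so levels of different genes can be set side by side. Cebpb, Cebpg and Cebpe were present at 74.4, 31.1 and 11.7 TPM on average, whereas Cebpa and Cebpd stayed near 0. Prtn3 and Mpo lay just above 1 TPM and Elane at it, and Ctsg and Ms4a3 were near 0. Among all protein-coding genes 40.0% were detected by the same rule, so the count of 5 of 10 is not by itself a result about these genes. In bulk RNA, fewer cells of a type and less RNA per cell cannot be told apart.

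Replicate 1 held 61982634 expected counts and replicate 2 held 80658648. Of the 11 erythroid markers that the tables hold, 10 were detected, led by Hba-a1 at 4164 ± 400 TPM (SD, n = 2 in this and later means), Hba-a2 at 1296 ± 320, Klf1 at 221 ± 38.6, Hbb-bs at 173 ± 21.3, Epor at 110 ± 10.2 and Gata1. Gata1 RNA was 48.0 TPM in replicate 1 and 46.6 in replicate 2 of the libraries labelled Gata1-; a gene-level value does not show whether a working product is made. The 7 lymphocyte and 9 eosinophil markers had no detected gene. The 13 basophil and mast cell markers had 2, Cpa3 at 3.37 ± 0.0636 and Hdc at 2.36 ± 0.410 TPM, with Gzmb (0.38 and 1.14 TPM) and Mcpt1 (0.06 and 0.27 TPM) called higher in replicate 2 by the test described further on.

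The C/EBP genes, and among the granulocyte genes Prtn3, Elane and Ctsg, each share a stretch that carries a common function. These stretches are shown here because similar sequence bears on how reads are divided between relatives. The basic region, the part of a C/EBP protein that touches DNA, is encoded by these 51 bases, read 5′ to 3′ on the gene's strand from GENCODE M21 transcripts on GRCm38, the assembly also called mm10. Capitals mark bases unlike Cebpb at the same place. Positions in the same order are chr2:167689703-167689753 (plus strand), chr7:35050585-35050635 (minus), chr14:54710707-54710757 (minus), chr7:35120283-35120333 (plus) and chr16:15887913-15887963 (plus), each in a coding exon.
Cebpb: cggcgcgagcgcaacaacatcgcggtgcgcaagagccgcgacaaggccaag
Cebpg: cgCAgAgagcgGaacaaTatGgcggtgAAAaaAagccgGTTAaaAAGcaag
Cebpe: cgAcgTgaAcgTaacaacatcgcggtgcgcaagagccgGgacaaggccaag
Cebpa: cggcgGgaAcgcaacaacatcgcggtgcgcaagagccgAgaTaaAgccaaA
Cebpd: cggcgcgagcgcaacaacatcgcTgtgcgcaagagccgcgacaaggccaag

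Against Cebpb, the basic-region stretch of Cebpd differed at 1 base, that of Cebpe at 5, that of Cebpa at 6 and that of Cebpg at 17. Over whole transcripts the longest run of bases shared exactly was 29 between Cebpa and Cebpb, 27 between Cebpb and Cebpd, and 26 between Cebpe and each of Cebpa and Cebpb. Every pair with Cebpg shared 11 or 12 bases at most. The deposited expected counts, which are estimates and need not be whole, were whole numbers to 2 decimals for all 10 genes in both libraries, so no reads of these genes were recorded as divided with another gene. The detected Cebpb and Cebpe and the near-absent Cebpa and Cebpd are thus 4 genes of similar basic region, and the detected Cebpg is the least alike.

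The serine proteases Prtn3, Elane and Ctsg share the motif around the active-site serine. Their 45 bases from the codon for the glycine that opens it are shown on the gene's strand, with capitals for bases unlike Prtn3, at chr10:79882818-79882862 (plus strand), chr10:79887917-79887961 (plus) and chr14:56100106-56100150 (minus), each in a coding exon.
Prtn3: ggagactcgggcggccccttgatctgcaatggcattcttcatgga
Elane: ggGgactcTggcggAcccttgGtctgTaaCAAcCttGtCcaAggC
Ctsg: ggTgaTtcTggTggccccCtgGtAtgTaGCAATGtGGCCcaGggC
Elane differed from Prtn3 at 13 of these bases and Ctsg at 20. The longest exactly shared run over whole transcripts was 17 bases between Prtn3 and Elane, 12 between Prtn3 and Ctsg and 9 between Elane and Ctsg.

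Cebpb (ENSMUSG00000056501.3, chr2:167688915-167690418, plus strand, a gene of 1 exon) was the most abundant of the 10 genes. It stood at 86.5 TPM in replicate 1 and 62.2 in replicate 2, a mean of 74.4 ± 17.2 TPM, from 6572 and 5969 counts. Replicate 1 was the higher library. That mean lay at percentile 80.8 of the genes detected in both libraries.

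Cebpg (ENSMUSG00000056216.8, chr7:35046422-35056573, minus strand) came next, at 33.8 and 28.5 TPM, a mean of 31.1 ± 3.75, from 2869 and 3258 counts. Cebpe (ENSMUSG00000052435.6, chr14:54710360-54712174, minus strand, 2 exons) followed at 12.3 and 11.2 TPM, a mean of 11.7 ± 0.728, from 749 and 866 counts. Both libraries gave the same order, and no value of Cebpb, Cebpg or Cebpe reached into the range of its neighbour. Cebpb exceeded Cebpg 2.56-fold in replicate 1 and 2.19-fold in replicate 2, and Cebpg exceeded Cebpe 2.76-fold and 2.54-fold. As percentiles of detected genes, Cebpg lay at 63.4 and Cebpe at 40.9.

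The remaining C/EBP genes gave a handful of counts. Cebpd (ENSMUSG00000071637.4, chr16:15887286-15891031, plus strand) had 6 counts in replicate 1 and 8 in replicate 2, or 0.10 and 0.11 TPM. Cebpa (ENSMUSG00000034957.9, chr7:35119293-35121928, plus strand) had 6 and 4 counts, or 0.04 and 0.02 TPM. Both are genes of 1 exon, and neither reached the 10 counts in at least 1 library that were required for a test. The table lists Cebpd with 1180 bases, while its M21 transcript has 3746, so reads in the rest of that transcript may not have been counted.

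Summed over the 5 genes, C/EBP RNA amounted to 133 TPM in replicate 1 and 102 in replicate 2, a mean of 117 ± 21.7 TPM. Cebpb made up 65.2% and 61.0% of it, Cebpg 25.5% and 27.9%, and Cebpe 9.24% and 11.0%, a Cebpe mean of 10.1 ± 1.25%. The shares of Cebpd and Cebpa averaged 0.0916% and 0.0249%. The composition thus moved by a few percentage points between the libraries, with Cebpb's share higher in replicate 1 and those of Cebpg and Cebpe higher in replicate 2.

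Of the granulocyte genes, Prtn3 (ENSMUSG00000057729.8, chr10:79874476-79883174, plus strand) was highest, at 2.01 and 2.05 TPM, a mean of 2.03 ± 0.0283, from 92 and 123 counts. Mpo (ENSMUSG00000009350.9, chr11:87793581-87804413, plus strand) stood at 1.52 and 1.76 TPM, a mean of 1.64 ± 0.170, from 190 and 286 counts. These means were at percentiles 7.42 and 4.22 of the detected genes, so the most abundant granule transcripts were among the rarest that passed the detection level. Elane (ENSMUSG00000020125.6, chr10:79886247-79888215, plus strand) measured 0.76 TPM in replicate 1 against 1.19 in replicate 2, from 33 and 65 counts, and missed detection through replicate 1 alone.

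Ctsg (ENSMUSG00000040314.1, chr14:56099881-56102574, minus strand) had 3 and 10 counts, or 0.06 and 0.17 TPM. Ms4a3 (ENSMUSG00000024681.7, chr19:11629496-11640851, minus strand) had 1 and 2 counts, at or below the 3 counts that a count of 0 allows, so no ratio is given for it. All of its counts were assigned to a transcript annotated as having a retained intron, and none to its 2 protein-coding transcripts. The authors' posterior mean estimates instead gave that transcript 43.2% and the protein-coding ones 27.6% and 29.1%, so these few counts do not settle which transcript they came from. The 5 genes summed to 4.36 and 5.19 TPM, a mean of 4.78 ± 0.587, of which Prtn3 held 46.1% and 39.5%, Mpo 34.9% and 33.9%, and Elane 17.4% and 22.9%.

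The C/EBP sum exceeded the granulocyte sum by 30.4-fold (replicate 1) and 19.7-fold (replicate 2). The mean log2 ratio was 4.61 ± 0.45. The factor of late granulocyte maturation, Cebpe, was 6.10-fold and 5.48-fold above Prtn3, and 8.07-fold and 6.38-fold above Mpo. In descending order of mean the 10 genes ran Cebpb, Cebpg, Cebpe, Prtn3, Mpo, Elane, Ctsg, Cebpd, Cebpa, Ms4a3. The deposited TPM bounds, whose probability level is not given in the sources used here, overlapped between Prtn3 (1.81 to 3.00 in replicate 1, 1.87 to 2.81 in replicate 2) and Mpo (1.42 to 1.97 and 1.64 to 2.12). The values of Ctsg and Cebpd also overlapped, as did those of Cebpa and Ms4a3. By the bounds, Cebpd (0.040 to 0.209 in replicate 1, 0.050 to 0.203 in replicate 2) overlapped Cebpa (0.016 to 0.086 and 0.0066 to 0.053). The bounds of Ms4a3 (0.012 to 0.137 and 0.016 to 0.124) overlapped those of Ctsg, Cebpd and Cebpa. The order of Prtn3 and Mpo, and that among Ctsg, Cebpd, Cebpa and Ms4a3, is therefore not resolved.

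**Figure D1:**
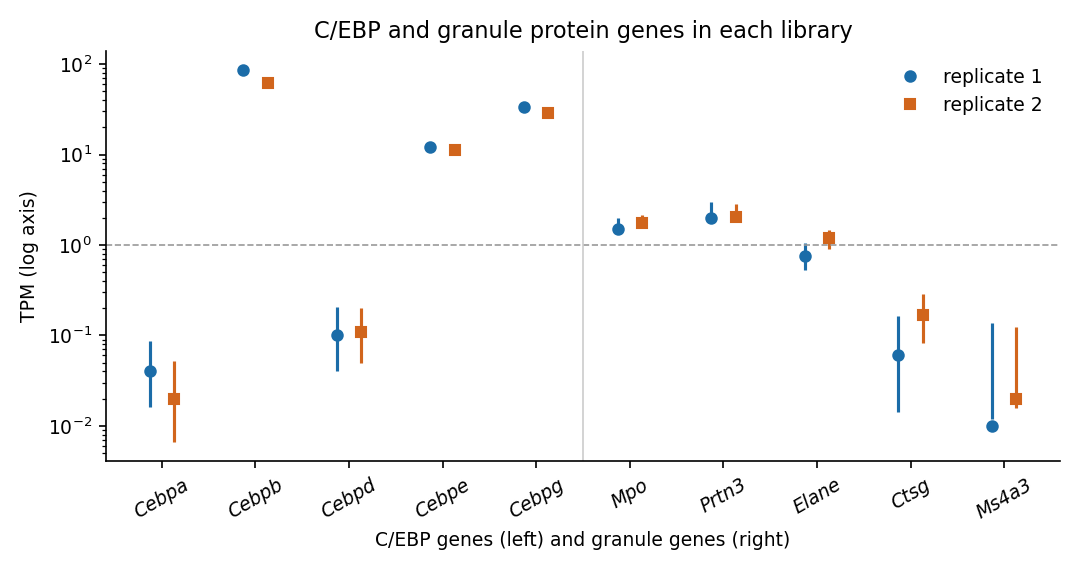
Deposited TPM (log axis) of the 10 genes in replicate 1 (circles) and replicate 2 (squares), with vertical lines for the deposited bounds and a dashed line at 1 TPM. The bounds belong to the authors' posterior estimate and need not contain the point, as for Ms4a3; Cebpb, Cebpg and Cebpe lie above 10 TPM, Prtn3 and Mpo between 1.52 and 2.05, and Ctsg, Cebpd, Cebpa and Ms4a3 below 0.2.

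Set among the wider bZIP class, the C/EBP genes spanned it. Of 52 bZIP genes including them, Cebpb ranked 8 in replicate 1 and 10 in replicate 2, Cebpg 14 and 16, Cebpe 20 and 22, Cebpd 35 and 34, and Cebpa 37 and 39. Of the other 47 bZIP genes 28 were detected. The highest were Atf5 at 337 ± 74.5 TPM and Atf4 at 158 ± 16.7, both factors of the amino acid stress response, the erythroid and megakaryocytic Nfe2 at 153 ± 0.233, Crebzf at 140 ± 14.8, Jund at 121 ± 24.9 and Atf6b at 95.5 ± 7.86. Next to Cebpb stood Tef (67.8 and 74.8 TPM) and Junb (75.9 and 66.3 TPM), whose values fell inside Cebpb's range, so these 3 are not ordered by the libraries.

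**Figure D2:**
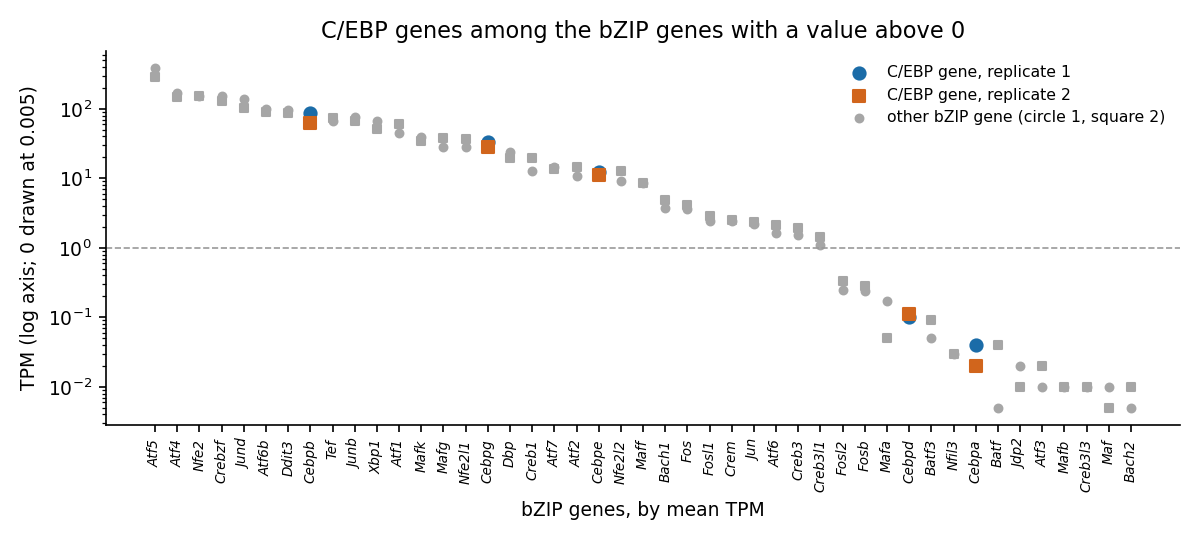
Deposited TPM (log axis, with 0 drawn at 0.005) of the bZIP genes that have a value above 0, ordered by mean; coloured points are C/EBP genes and grey points the others, with circles for replicate 1 and squares for replicate 2. Cebpb sits near Tef and Junb, Cebpg and Cebpe lie lower among the detected genes, and Cebpd and Cebpa fall below the dashed line at 1 TPM.

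Agreement between the libraries was examined next. With 1 sample group there is no comparison of conditions, and the test available, an exact conditional binomial test (two-sided, Benjamini-Hochberg adjusted) of the rounded expected counts, knows counting error only and compares these libraries. A gene was called when its adjusted p was under 0.05 and its difference 2-fold or more, which applied to 5.62% of the 11636 genes tested (444 higher in replicate 2, 210 in replicate 1). Of the 10 genes 7 could be tested and 0 were called. At an unadjusted p under 0.05 the exact test counted 3 of the 7, and edgeR's negative binomial exact test, which adds a common coefficient of variation of 0.224 estimated over all genes, counted 0. That coefficient can come only from the differences between these same 2 libraries, so ordinary differences could not pass the edgeR test, and its 0 says nothing about agreement.

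The 3 were the detected C/EBP genes, each higher in replicate 1 by less than 2-fold. For Cebpb the log2 ratio of replicate 2 to replicate 1 was -0.64 (95% interval -0.69 to -0.59), with an adjusted p of 1.61e-133 by the exact test. For Cebpg it was -0.32 (-0.39 to -0.24), adjusted p = 7.34e-17 by the same exact test, and for Cebpe -0.29 (-0.43 to -0.15), adjusted p = 0.000145. Without the fold requirement 64.4% of all tested genes passed, and the median size of the log2 ratio over all genes was 0.27 with a 90th percentile of 0.83. Cebpg and Cebpe were therefore near the middle of the gene distribution and Cebpb was inside its 90th percentile.

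The granulocyte genes did not pass. By the exact test the log2 ratios were -0.08 for Prtn3 (95% interval -0.48 to 0.33, adjusted p = 0.794), 0.09 for Mpo (-0.18 to 0.36, adjusted p = 0.610), 0.48 for Elane (-0.15 to 1.13, adjusted p = 0.194) and 1.24 for Ctsg (-0.72 to 3.74, adjusted p = 0.360). The intervals of Prtn3 and Mpo leave out a 2-fold difference, while those of Elane and Ctsg do not. Scaling by library totals in place of TMM moved the median log2 ratio of all genes from 0.01 to 0.13; Cebpb, Cebpg and Cebpe then stood at -0.52, -0.20 and -0.17, and Prtn3 turned to 0.04. On the deposited TPM the ratios of Cebpb, Cebpg and Cebpe were -0.48, -0.25 and -0.13, and the deposited bounds of the libraries were apart for Cebpb and Cebpg and overlapped for the other 8 genes.

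**Figure D3:**
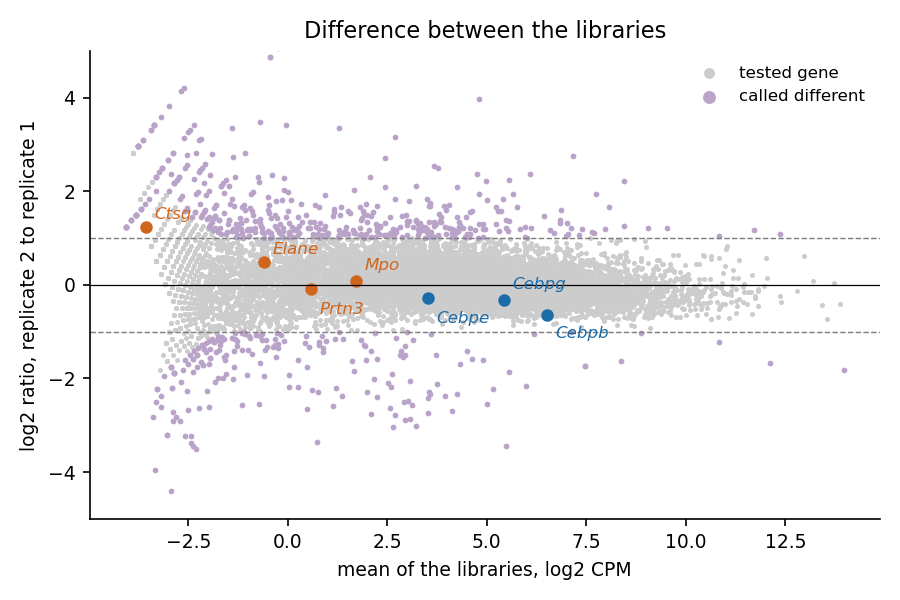
Log2 ratio of replicate 2 to replicate 1 (vertical axis) against the mean log2 CPM of the libraries (horizontal axis) for each tested gene, with called genes in violet, C/EBP genes in blue and granulocyte genes in orange; dashed lines mark 2-fold, and 3 counts stand in where a library had 0. The 3 C/EBP genes lie below 0 inside the dashed lines and Ctsg lies beyond 2-fold without being called; 9 genes beyond a log2 ratio of 5 are not drawn.

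Transcript tables added detail for the genes with several transcripts. Cebpg has 2, both of 2 exons and both annotated as protein-coding. The shorter, ENSMUST00000070191.8, of 890 bases in the table, held 79.3% of the gene's TPM in replicate 1 and 76.6% in replicate 2, a mean of 78.0 ± 1.90%. The longer, ENSMUST00000130491.1, of 4639 bases, held 20.7% and 23.4%. By expected counts the order was the opposite, since a longer molecule yields more reads: the shorter had 38.9% and 35.2% of the counts and the longer 61.1% and 64.8%. The longer transcript extends to 35046422 on chromosome 7 at its 3′ end, against 35050315 for the shorter, and also begins further upstream, at 35056573 against 35055940.

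**Figure D4:**
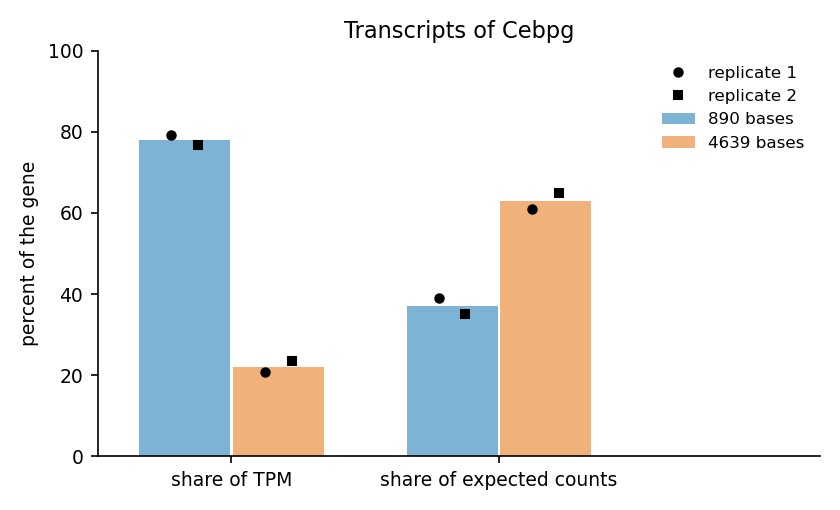
Percent of Cebpg assigned to its transcript of 890 bases (blue) and of 4639 bases (orange), by TPM on the left and by expected counts on the right; bars are means and points the libraries. The shorter transcript leads by TPM (78.0%) and the longer by counts (63.0%).

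Mpo was carried mainly by ENSMUST00000121303.3, a protein-coding transcript of 14 exons, with 98.0% of the gene's TPM in replicate 1 and 90.9% in replicate 2. Prtn3 was carried mainly by ENSMUST00000006679.10, of 5 exons, with 84.5% and 86.6%. The authors' posterior mean estimates gave these transcripts lower means, 82.6% for Mpo and 68.1% for Prtn3, so the shares at this depth depend on the estimator. Cebpa, Cebpb, Cebpd, Cebpe, Elane and Ctsg each have a single transcript in the tables.

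Overlapping annotation touched several of the genes, and whether the counting used strand is not given in the sources used here. Without strand, reads of overlapping genes on opposite strands cannot be told apart. As given above, no reads of the genes described here were recorded as divided with another gene. The overlaps below are those of M21, whereas the deposited tables were made with annotation M4. In M21 the exons of Cebpb share 312 of 1504 bases with Tmem189 on the opposite strand, which was listed at 36.0 and 38.6 TPM. Cebpd shares 562 of 3746 exon bases with Spidr (2.27 and 3.43 TPM), Prtn3 shares 159 of 1732 with Plppr3 (0.13 and 0.2 TPM), and Mpo shares 512 of 3424 with Gm11505, listed at 0 in both libraries. The other 6 genes overlapped no gene of the tables in their exons.

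Genomic neighbours were described as context, taking on each side the nearest protein-coding gene that does not overlap the gene itself; the overlapping genes are those given above. Cebpa and Cebpg lie 62720 bases apart on chromosome 7, the former at 0.03 and the latter at 31.1 TPM, with Pepd (10.8 ± 1.09 TPM) 1714 bases from Cebpg and Slc7a10 (0.05 TPM) 64457 bases from Cebpa. Cebpe lies 10035 bases from Slc7a8, an amino acid transporter at 181 ± 7.59 TPM. Prtn3 and Elane are 3073 bases apart; on the outer side of Prtn3 is Ptbp1, an RNA-binding splicing repressor at 1192 ± 105 TPM, 9705 bases away, and on that of Elane is Cfd, listed at 0, 2638 bases away. Mpo lies between Tspoap1 (10.3 ± 0.00707 TPM, 7653 bases) and the related peroxidase gene Lpo (listed at 0, 2015 bases).

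For the other genes, Cebpb has Ptpn1 (39.7 ± 1.83 TPM) and Gm20431 (listed at 0) as neighbours, and Cebpd has Mzt2 (37.9 ± 7.11) and Pkp2 (14.5 ± 3.35). Ctsg lies between Mcpt8 and Gzme, both listed at 0, and Ms4a3 between Ms4a2 (0.025 TPM) and Oosp2 (listed at 0). Of 16 such nearest non-overlapping genes that are not themselves among the 10, 15 were in the tables and 7 were detected. Over all protein-coding genes 40.0% were detected by the same rule. Of the near-absent genes, Cebpd had detected neighbours, Mzt2 and Pkp2, while Ctsg and Ms4a3 had none. The only detected neighbour of Cebpa was Cebpg, itself among the 10.

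Genes known to act on C/EBP factors were mostly present, 9 of the 11 in the tables being detected, with median levels of 96.9 and 98.9 TPM against 0.03 in both libraries over all protein-coding genes. The RNA-binding proteins Hnrnpk (739 ± 196 TPM), Pcbp2 (135 ± 26.1), Cnbp (130 ± 8.24) and Celf1 (95.8 ± 4.41), the chaperone Calr (247 ± 10.6) and the bZIP factor Atf4 were the highest. Ddit3, the stress-induced bZIP partner of C/EBP proteins also called CHOP, stood at 92.2 ± 6.65 TPM. The ubiquitin ligase gene Cop1 was at 42.3 ± 5.26 TPM, whereas of the pseudokinases that bring C/EBPα to it Trib1 was at 0.62 ± 0.0424 TPM and Trib2 was listed at 0 TPM with 1 count in each library. Trib3, the third of that family, was at 24.4 and 17.9 TPM, and 0 genes of the list were called different.

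Of 18 myeloid transcription regulators 9 were detected, with medians of 1.27 and 1.06 TPM. Runx1 (162 ± 4.34 TPM), which acts upstream of Cebpa in blood progenitors, and Spi1 (136 ± 4.47 TPM), which encodes PU.1, were the highest, followed by Rara (93.3 ± 11.4), Etv6 (62.1 ± 9.04), Myb (42.1 ± 7.62) and Egr1 (41.2 ± 1.72). Gfi1, which encodes a transcriptional repressor that acts in granulocyte progenitors, was at 2.22 ± 0.283 TPM. The monocytic factors Irf8 and Klf4 had means of 0.08 and 0.025 TPM, next to which Cebpa at 0.03 was of similar size.

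Receptors for the cytokines of the lineage were split. Kit (96.7 ± 18.9 TPM), Csf2rb (64.8 ± 0.113), Il3ra (46.7 ± 0.615), Il4ra (19.7 ± 1.35), Csf2rb2 (8.42 ± 0.198) and Csf2ra (5.0 ± 0.707) were the 6 detected of 19, with list medians of 0.24 and 0.34 TPM. They include the subunits of the receptors for GM-CSF and interleukin 3. The receptors of G-CSF and M-CSF, Csf3r and Csf1r, had 0.02 and 0.01 TPM in each library. Fcgr2b (0.24 and 0.46 TPM) was called higher in replicate 2, with a log2 ratio of 1.31 and an adjusted p of 0.00400 by the exact test.

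A list drawn up around the processing, packing, release and inhibition of granule proteases had 11 of 15 genes detected, with medians of 6.57 and 6.18 TPM. Not every gene on it handles the proteases directly, among them Lamtor2, Hax1, G6pc3, Gfi1 and Cxcr4, so the count does not describe protease handling alone. The highest on the list were Lamtor2 (139 ± 63.4 TPM), Unc13d (135 ± 9.36), which primes granules for release, Srgn, Hax1 (26.6 ± 8.15), Ap3b1 (24.1 ± 2.46) and G6pc3 (14.7 ± 0.438). Srgn, whose proteoglycan packs basic granule proteins, measured 17.9 TPM in replicate 1 against 94.7 in replicate 2, called higher in replicate 2 with a log2 ratio of 2.22 (95% interval 2.10 to 2.34). Ctsc, the protease that activates elastase, proteinase 3 and cathepsin G, had only 13 counts in replicate 1 and 2 in replicate 2, or 0.25 and 0.03 TPM. It was called higher in replicate 1, with a log2 ratio of -3.20 (95% interval -6.39 to -1.06) and an adjusted p of 0.00164 by the exact test. Serpinb1a, an inhibitor of these proteases, was listed at 0 in both libraries, which allows up to 3 counts in each.

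A list of lysosomal genes, drawn up around products stored in the primary granule, had 12 of 20 detected, with medians of 3.98 and 5.09 TPM. Not every gene on it has such a product, since Lamp1 and Lamp2 encode membrane proteins of lysosomes and not stored granule proteins. The highest on the list were Lamp1 (189 ± 61.3 TPM), Ctsd (86.6 ± 25.2), Arsa (38.6 ± 0.566), Psap (34.3 ± 2.61), Ctsz (21.7 ± 0.870) and Gusb (21.6 ± 0.205). Of those more restricted to myeloid cells, lysozyme Lyz2 had 0.11 and 0.15 TPM, and Bpi 0 and 0.01. The granulocyte genes Prtn3 and Mpo thus lay near the level of Cd68 (2.21 and 2.29 TPM), a macrophage lysosomal protein, and below all 6 of the highest lysosomal genes.

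Markers of later granules and mature neutrophils, among them known C/EBPε targets, were detected for 4 of 23, with medians of 0.02 and 0.06 TPM. Among them were the NADPH oxidase subunit genes Cyba (370 ± 35.1 TPM), Ncf1 (28.8 ± 0.955) and Ncf4 (4.12 ± 0.962). The membrane subunit Cybb, needed with Cyba for the working enzyme, was at 0.02 and 0.06 TPM. The secondary granule genes had 0 to 0.04 TPM in replicate 1 and 0.01 to 0.16 in replicate 2 for Camp, Ngp and Ltf, and 0.05 and 0.06 for Lcn2. Mmp8 was called higher in replicate 2 (4 and 32 counts, 0.03 and 0.2 TPM, log2 ratio 2.5, adjusted p = 0.000319 by the exact test).

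Adding Ly6g, Ly6c2, Cd14 and Adgre1 gave 27 neutrophil and monocyte markers, of which the same 4 genes were the ones detected. The list summed to 433 and 385 TPM, nearly all of it Cyba, and Ly6g was listed at 0 in both libraries. The part of other cells in the levels of the granulocyte genes was not tested.

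**Figure D5:**
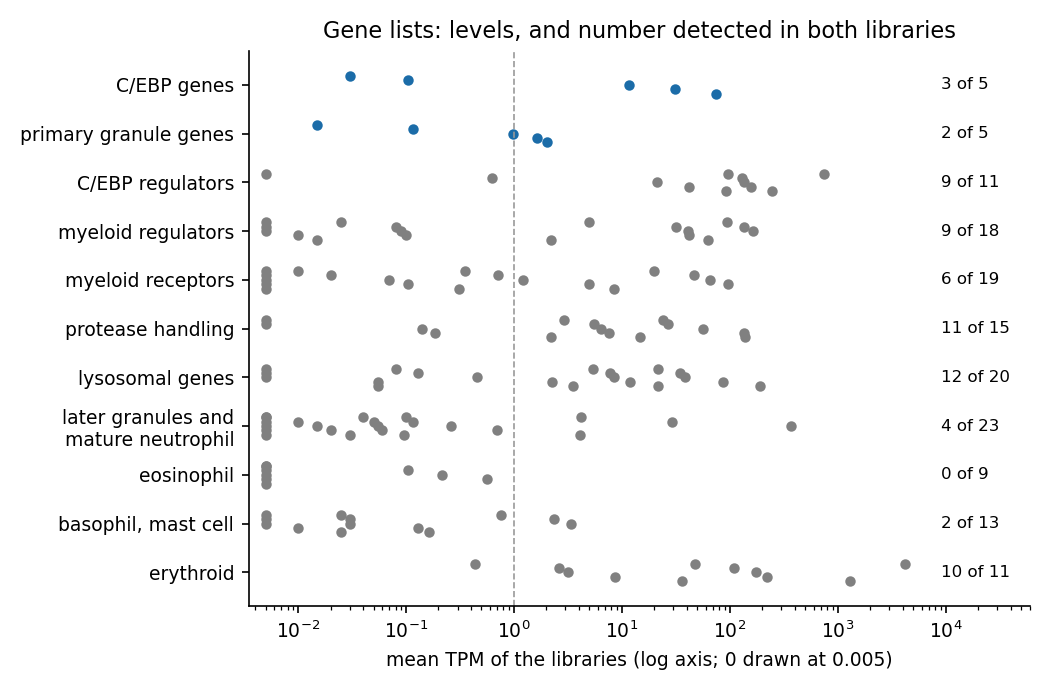
Mean TPM of the libraries (log axis, with 0 drawn at 0.005) of each gene of 11 lists, the 10 genes described here in blue and other genes in grey, with the number detected in both libraries on the right; vertical jitter only separates the points. The C/EBP genes divide into 3 above and 2 below the dashed line at 1 TPM, the granulocyte genes lie around or below it, and the later granule list has 4 genes of 23 above it.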

How the data were processed

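Polyadenylated RNA of 2 G1E libraries was analysed from the deposited gene and transcript tables, made on mm10 with annotation M4 per the deposited descriptions; aligner and counter: not given in the sources used here. The deposited expected counts are model estimates of read pairs per gene and need not be whole. The authors' TPM and FPKM are scaled by effective length and library total, per the file headers, and the deposited percent of each transcript is its part of the gene's TPM.

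Of 43346 gene entries 42462 (98.0%) matched GENCODE M21 by identifier. Detected means 1 TPM in both libraries. Libraries were compared with the two-sided exact conditional binomial test on rounded expected counts and totals scaled by TMM (edgeR 4.0.16, R 4.3.3; factors 0.960 and 1.04), for genes with 10 counts in at least 1 library, adjusted over all of them and called at adjusted p under 0.05 and 2-fold; 3 counts stood in for 0 in ratios. The test was run on simulated counts that held counting error only, the spread it assumes. That run does not show how the test behaves at the spread of these libraries. Intervals are exact 95% and cover counting error alone, because they are computed from the counts with no term for other spread between libraries. Reads lacking molecular identifiers do not count independent molecules, so the intervals may be too narrow even for counting error. DESeq2 1.42.0 gave alternative size factors. SciPy 1.17.1, pandas 2.3.3 and matplotlib 3.10.9 were used in Python 3.11.15.

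The genes, lists, test and alternatives were chosen with earlier results of these data known. Named are the 10 genes, up to 6 genes of highest mean TPM detected in each list, any list gene called different, and the nearest non-overlapping protein-coding gene on each side; undetected or further list genes were picked after their values were seen, and some list genes are not reported here. No genes of like pattern were ranked, since 1 group holds none. Hnrnpe2 and Ahsp, on the lists, matched no entry by symbol. Hnrnpe2 is another name for Pcbp2, which was on the same list and did match, so that gene was measured.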

Additional observations from a re-analysis of the deposited data

How the results depend on the processing

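Of 29 values of the main results under an alternative, 22 stayed within their limits and 7 did not. For a mean level, share or ratio the limit was the SD of the libraries. Leaving out either library cannot move a mean of 2 libraries by more than that. Such values stayed by construction and say nothing about stability. With 0 of the 10 genes called there was no called direction to reverse; Prtn3, not called, turned from -0.08 to 0.04 when scaled by library totals. At 5 TPM 3 of the 10 genes were detected (Cebpb, Cebpg and Cebpe), at 0.5 TPM 6. Genes called different between the libraries numbered 654, against 421 with a minimum of 50 counts, 169 at 4-fold and 7495 with no fold requirement, settings that narrow or widen the rule by construction. edgeR's negative binomial exact test called 114 (56 higher in replicate 2, 58 in replicate 1; 444 and 210 in the exact test), with a spread estimated from the same 2 libraries, and scaling by library totals 768 (598 and 170). The 10 genes had 0 calls in each of these except with no fold requirement, where 3 passed (Cebpb, Cebpe and Cebpg). The 4-fold setting could not have added a call. Cebpe's share of C/EBP RNA was 7.96% by expected counts not scaled by length.

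Leaving out each library in turn gave 5 to 6 genes detected, a Cebpe share of 9.24 to 11.0% and a log2 ratio of the C/EBP to the granulocyte sum of 4.30 to 4.93. Of the other 144 values 132 stayed within their limits. These too include levels and transcript shares with a library left out, which stay by construction. No paired analysis was possible because the libraries form 1 group. Depth limits Ctsg, Ms4a3, Cebpa and Cebpd, at 10 counts or fewer in each library.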
